A study of Oryza sativa with 12 samples.

Results

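Calcineurin B-like proteins (CBLs) and the kinases they bind (CIPKs) were described in rice seedlings with and without a cyclic GMP analogue, in wild type and in a line labelled as a PKG mutant. The genes were chosen by name: of 112071 features in the deposited tables, 35 carried a symbol that starts with CBL or CIPK followed by a digit, 9 CBL and 26 CIPK genes. RNA came from 14-day-old ZH11 seedlings on half-strength MS medium and was sequenced in 12 libraries, 3 in each of 4 groups. The groups were pkg with 10 µM Br-cGMP for 5 h, pkg without it (pkg control), wild type with 10 µM Br-cGMP for 5 h, and wild type without it (WT control). The mutant groups carry the genotype label PKG-/-, PKG being a cGMP-dependent protein kinase, and the labels give neither the type of lesion nor the number of independent lines. The labels call the repetitions biological without naming separate cultures, so a p-value covers library-to-library spread, which may be technical. Reads recovered from the values ranged from 6667261 to 9438909 per library.

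CBLs are small calcium sensors with EF hands and no enzymatic activity of their own. A CBL loaded with calcium binds the NAF motif in the regulatory part of a CIPK, a serine/threonine kinase of the SnRK3 class, which releases the kinase and places it at the plasma membrane or the tonoplast. The pairs are best known for ion transport: CBL4 and CIPK24, the rice counterparts of Arabidopsis SOS3 and SOS2, act on sodium export, and CBL1 with CIPK23 acts on the potassium channel AKT1. In rice, CIPK15 also links low oxygen and sugar supply to α-amylase genes in the germinating seed, and CIPK14 and CIPK15 take part in defence responses of cultured cells.

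Of the 35 genes, 22 reached 1 FPKM (reads scaled by feature length and sequencing depth) in at least 3 libraries and could be tested, 6 of the CBL and 16 of the CIPK genes. Among the tested CBL genes the most abundant was CBL1, a sensor at the plasma membrane, with a mean of 61.0 FPKM over the 12 libraries. It took 46.6% to 58.9% of the summed level of the CBL genes chosen by symbol in each library. Genes without such a symbol are outside this sum. Genes listed without reads add nothing to it, although such a listing does not show a missing transcript. CBL2, a tonoplast sensor, averaged 18.1 FPKM, CBL6 15.4 FPKM and CBL7 11.6 FPKM. CBL4, the sensor of the salt pathway, averaged 5.78 FPKM and CBL5 2.15 FPKM. The ranges of CBL2, CBL6 and CBL7 over libraries overlapped, and their order was not the same in every library.

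Among the tested kinases, CIPK7 (mean 128.5 FPKM), CIPK15 (111 FPKM), CIPK14 (87.2 FPKM) and CIPK2 (86.0 FPKM) stood at the top. Together they held 64.9% to 75.1% of the summed level of the CIPK genes chosen by symbol in each library. This sum has the same limits as that of the CBL genes. The ranges of these 4 genes overlapped. CIPK18 averaged 38.1 FPKM, CIPK16 36.6 FPKM, CIPK29 31.1 FPKM, CIPK24 23.8 FPKM and CIPK17 16.5 FPKM. A lower tier held CIPK26 (9.24 FPKM), CIPK10 (8.60 FPKM), CIPK19 (6.02 FPKM), CIPK12 (3.62 FPKM), CIPK11 (3.35 FPKM), CIPK25 (2.69 FPKM) and CIPK13 (1.38 FPKM).

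**Figure D1:**
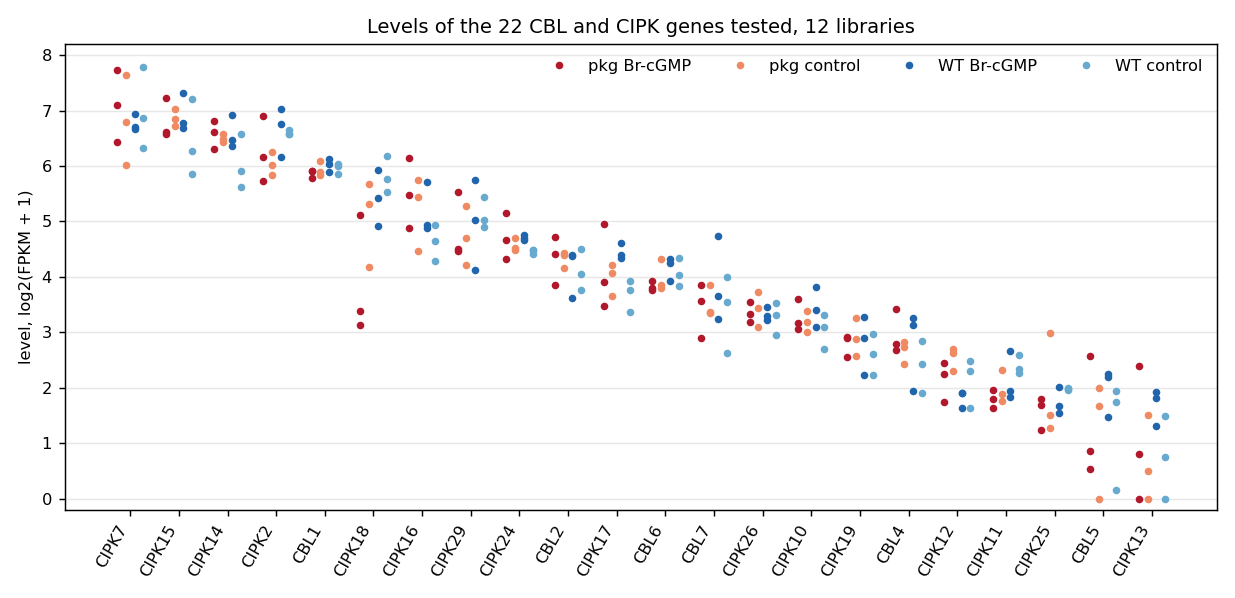
Level of each of the 22 CBL and CIPK genes that could be tested, on a log2(FPKM + 1) axis, with 1 point per library and a colour per group (3 libraries each); genes run by mean level from CIPK7 to CIPK13. CBL1 points lie close together, while CIPK18 spreads from 7.80 to 71.6 FPKM.

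How much a gene varied over the 12 libraries differed widely. The highest library of CBL1 held 1.28 times the lowest, and this ratio was 1.55 for CBL6, 1.8 for CIPK24 and 1.84 for CIPK26. For CIPK18 the highest library held 9.17 times the lowest, the widest ratio among the 20 tested genes with no library at 0. CIPK25 (5.17) and CBL7 (4.97) came next. The CBL1 values rest on 435 to 782 reads per library and those of CIPK18 on 129 to 1394 reads, but the CIPK25 values on 22 to 85 reads only.

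The other 13 genes were not tested. CBL3, CBL8, CBL10, CIPK3, CIPK8, CIPK23, CIPK28 and CIPK31 were listed at 0 in all 12 libraries, and CIPK1 had 1 read in pkg control 3 and 0 elsewhere. Several of these genes have known roles in seedlings or under stress: CIPK23 is the partner of CBL1 in potassium uptake, CBL10 is tied to flooding tolerance during germination, and CIPK31 acts in germination and seedling growth under stress. The files also list added features, placed on the genome beside the reference annotation. Each of these 9 genes lay to 98.8% or more of its span under an added feature on the same strand. Of the 12 CBL and CIPK genes with at least 90% of their span under such a feature, 8 were listed at 0 throughout and 2 could be tested, while of the 22 with no such overlap none was listed at 0 throughout and 19 could be tested.

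The same split was seen over the whole table. Of 14482 reference genes with at least 90% of their span under a same-strand added feature, 65.5% were listed at 0 in all libraries, against 23.8% of 22136 with no such overlap. No source used here says how reads lying in more than 1 feature were counted, and the part of this in the zeros was not tested. A 0 is therefore reported as a listing and not as a missing transcript. For the CBL3 locus (chromosome 3, 23888738 to 23895468, + strand; the genome build is not named in any source used here) the added feature held 0.999 to 2.18 FPKM, from 19 to 51 reads per library. The added feature over CIPK3 held 0.130 to 2.55 FPKM. Those over CIPK1, CIPK8, CIPK23 and CIPK31 were themselves listed at 0 in all libraries. CIPK10 and CIPK19 were covered in full by an added feature and still had reads in every library, 179 to 392 for CIPK10 and 58 to 128 for CIPK19.

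**Figure D2:**
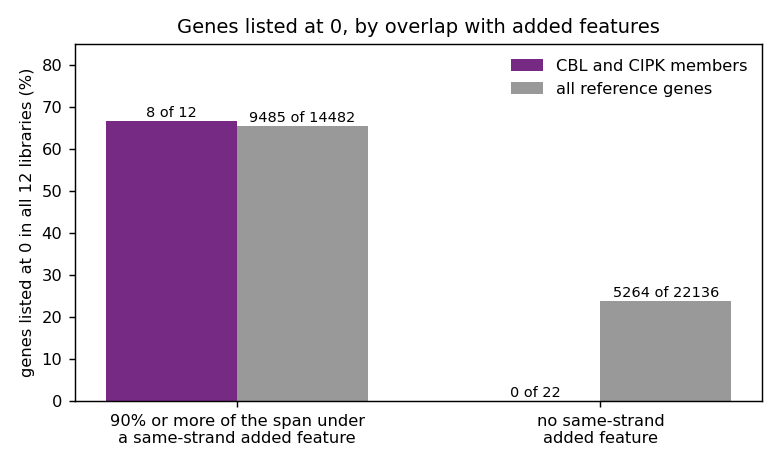
Share of genes listed at 0 in all 12 libraries (bars, percent, from 0), for CBL and CIPK genes and for all reference genes, split by whether an added feature on the same strand covers at least 90% of the gene or none of it. In the covered class 8 of 12 family members and 9485 of 14482 reference genes were listed at 0; in the class with no overlap the counts were 0 of 22 and 5264 of 22136.

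The remaining untested genes lay low and had no such cover, apart from CIPK22. CIPK5 had at most 0.321 FPKM (4 reads) and CIPK30 at most 0.263 FPKM (4 reads). CIPK20 was listed at 0 in all 6 pkg libraries, had 0.0710, 0.534 and 0.0 FPKM in wild type Br-cGMP, and 0.511, 0.428 and 0.217 FPKM in WT control. Its highest value is 9 reads. CIPK22 lay between 0.0880 and 2.17 FPKM. Several members are neighbours whose levels stood far apart: CIPK12 and CIPK30 are 3.3 kb apart on chromosome 1 with means of 3.62 and 0.0220 FPKM, and CIPK13 and CIPK5 are 8.4 kb apart on the same chromosome with means of 1.38 and 0.0580 FPKM. CIPK2 and CIPK29, 14.3 kb apart on chromosome 7, were both abundant.

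Each difference below is given ± its standard error in log2(FPKM + 1) units, from limma over 25238 features with Benjamini-Hochberg adjustment and a threshold of 0.05. No CBL or CIPK gene passed this threshold in any of the 7 comparisons made, so no member is called changed. The count was 0 in each comparison with limma-voom on recovered reads too. The standard errors of the single comparisons ranged from 0.142 for CBL1 to 0.695 for CBL5, with a median of 0.326 over the 22 genes, so only large changes could have passed. The PKG locus, taken to be OS02G0281000, ranged from 3.68 to 9.29 FPKM over the 6 pkg libraries, against 4.65 to 7.09 FPKM over the 6 wild type libraries. Its mean was not lower in pkg, and without a label for the altered part the level is no check of the genotype.

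Before the comparisons, 3 libraries that stand apart are described. pkg Br-cGMP 3, pkg control 3 and WT control 3 were low in 4 genes typical of roots (the silicon transporter genes LSI2 and NIP2-1, the aquaporin gene PIP2-3, and OS02G0662000), with a mean log2 level of 1.15, 0.75 and 1.25, against 5.03 to 8.87 in the other 9 libraries. In RNA from seedlings, fewer cells of a type in the sample, for any reason, and less RNA per cell cannot be told apart. Of 12 genes of green leaf searched by symbol, 5 were listed at 0 in all libraries, and their summed level was 5537, 10169 and 6857 FPKM in pkg Br-cGMP 3, pkg control 3 and WT control 3, against 2550 to 6138 FPKM in the others.

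Of the 22 tested members, 4 separated these 3 libraries from the other 9 without overlap. CBL5 had 0.447 FPKM in pkg Br-cGMP 3, 0.0 in pkg control 3 and 0.121 in WT control 3, and 0.820 to 4.98 FPKM in the other 9. CIPK13 was listed at 0 in all 3 and had 0.416 to 4.25 FPKM in the others. Both were thus low where the root genes were low, and both were highest in pkg Br-cGMP 2, the library with the highest root level. CIPK7, a kinase linked to cold tolerance, went the other way, with 211, 198 and 219 FPKM in pkg Br-cGMP 3, pkg control 3 and WT control 3 and 63.6 to 135.5 FPKM in the others. CIPK26 had 10.7, 12.3 and 10.6 FPKM there and 6.70 to 10.0 FPKM elsewhere, a narrow gap. Over all tested features, 1.56% lay above and 4.74% below the other 9 libraries in all 3. Features outside the family thus followed this split too. The 4 of 22 members are a larger share than that, and the excess was not tested. The 3 libraries belong to 3 of the 4 groups and none to wild type Br-cGMP.

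**Figure D3:**
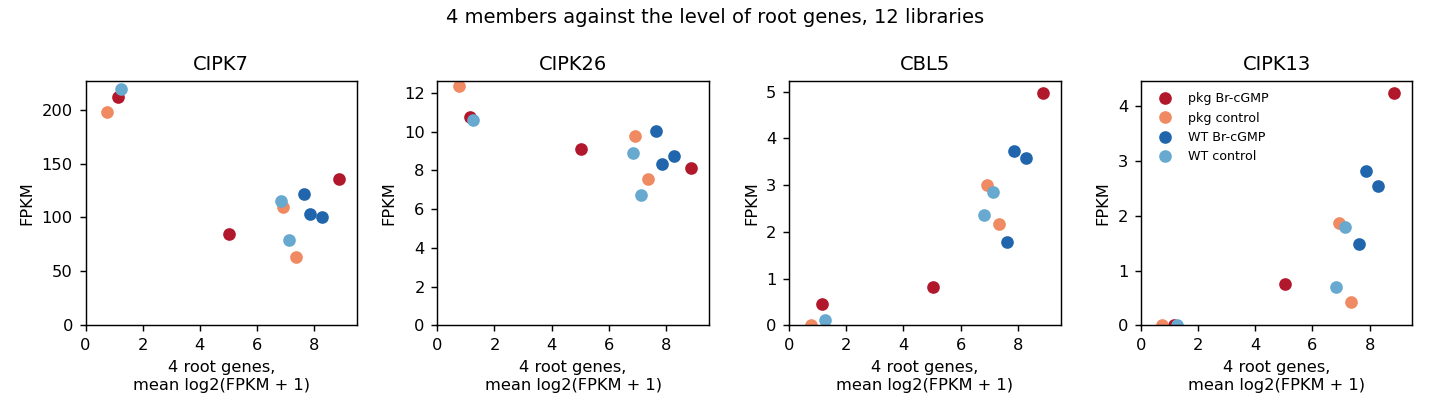
Level (FPKM, from 0) of CIPK7, CIPK26, CBL5 and CIPK13 in the 12 libraries against the mean log2(FPKM + 1) of 4 root genes, with a colour per group. The 3 libraries at a root level of 0.75 to 1.25 hold the 3 highest values of CIPK7 and the 3 lowest of CBL5 and CIPK13.

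The first question was what Br-cGMP changed in wild type. Of the 22 members, 16 had a higher mean in wild type Br-cGMP than in WT control (72.7%), among them all 6 CBL genes, where 48.6% of all tested features lay above 0. The median difference was 0.15 over the members and -0.01 over all features. At an unadjusted p under 0.05 there was 1 member of 22, against 5.33% of all features, and 0 members and 0% of features passed the adjusted threshold. WT control 3 is low in root genes and no wild type Br-cGMP library is, and the mean of the 4 root genes was higher in wild type Br-cGMP, with a median difference of 2.55. The part of this in the differences was not tested beyond the values without these libraries given below.

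CIPK17 was the member with the smallest p. It had 19.3, 23.5 and 20.1 FPKM in wild type Br-cGMP and 12.5, 14.1 and 9.28 FPKM in WT control. The groups did not overlap. The difference was 0.77 ± 0.34 (limma, unadjusted p = 0.0472, adjusted p = 0.882), and 0.61 ± 0.40 without the 3 libraries low in root genes. In pkg the same gene had 10.2, 29.9 and 13.9 FPKM with Br-cGMP and 17.5, 15.8 and 11.6 FPKM without, and the groups overlapped.

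CIPK24, the kinase of the salt pathway, was singled out after its values were seen, as the only other member whose groups did not overlap. It had 25.1, 24.4 and 26.0 FPKM in wild type Br-cGMP and 21.5, 21.5 and 20.3 FPKM in WT control. The step was small and the libraries of each group lay close together. The difference was 0.24 ± 0.20 (adjusted p = 0.897, limma), with a 95% interval from -0.21 to 0.69. Non-overlapping groups with the treated one higher were found for 2 of 22 members, and for 8.88% of all tested features. In pkg, CIPK24 had 19.1, 34.4 and 24.2 FPKM with Br-cGMP and 22.0, 25.0 and 21.5 FPKM without.

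CIPK14 and CIPK15 lie in the duplicated ends of chromosomes 12 and 11, and reads from near-identical copies may be split between them, so each value is uncertain. CIPK14 (chromosome 12, 679079 to 682143, - strand) had 120.0, 87.7 and 80.7 FPKM in wild type Br-cGMP and 94.7, 59.2 and 48.1 FPKM in WT control. CIPK15 (chromosome 11, 630585 to 633622, - strand) had 158.7, 109.0 and 101.6 FPKM in wild type Br-cGMP and 146.6, 76.5 and 56.8 FPKM in WT control. For both, the first library of each group was the highest and the groups overlapped. The differences were 0.54 ± 0.26 for CIPK14 and 0.48 ± 0.33 for CIPK15 (adjusted p = 0.882 and 0.889, limma), and 0.33 ± 0.28 and 0.19 ± 0.32 without the 3 libraries low in root genes. Over the 12 libraries CIPK15 stood at 1.00 to 1.55 times CIPK14.

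Of the other members named by p, CIPK10 differed by 0.41 ± 0.26, CIPK13 by 0.94 ± 0.62 and CIPK16 by 0.55 ± 0.41, with adjusted p from 0.885 to 0.889 in limma. The CIPK13 value depended on the scale, at 0.327 with a pseudocount of 5, 2.11 with a pseudocount of 0.1 and 2.48 by limma-voom. CIPK16 had 28.3, 51.5 and 29.6 FPKM in wild type Br-cGMP and 29.8, 18.4 and 23.9 FPKM in WT control. The groups overlapped, since WT control 1 lay above wild type Br-cGMP 1 and 3, and the difference was 0.284 without wild type Br-cGMP 2. CIPK13 is one of the genes that followed the root genes, and its difference was 0.57 ± 0.55 without the 3 low libraries. CBL1 had 69.1, 65.0 and 58.7 FPKM in wild type Br-cGMP and 62.9, 57.2 and 65.0 FPKM in WT control. Its difference of 0.06 ± 0.14 had a 95% interval from -0.26 to 0.37, the narrowest among the members.

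In pkg seedlings, 12 of 22 members (54.5%) had a higher mean with Br-cGMP, beside 48.3% of all features, and the median difference was 0.04. That median was 0.178 without pkg Br-cGMP 1 and -0.134 without pkg Br-cGMP 2. In the main fit, which does not pair libraries, none had an unadjusted p under 0.05, against 2.71% of all features. In that fit 0% of features passed the adjusted threshold. No member separated the groups, where 5.12% of all features did. CIPK18 (OS05G0332300, chromosome 5, 15556085 to 15560404, + strand) had the smallest p. It stood at 33.5, 9.41 and 7.80 FPKM in pkg Br-cGMP and 50.0, 17.1 and 38.8 FPKM in pkg control. Each treated library lay under the control library of its number, but the first treated library was above the second control. The difference was -1.18 ± 0.54 (unadjusted p = 0.0534, adjusted p = 1 in limma), with a 95% interval from -2.38 to 0.02. With same-numbered libraries paired in the fit (replicate block) it was -1.18 ± 0.40 (unadjusted p = 0.0236, limma) and did not pass. It was -0.68 ± 0.70 without the 3 libraries low in root genes, 2 of which are pkg libraries.

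CIPK12, known from rice lines with altered drought tolerance, had 2.36, 3.75 and 4.46 FPKM in pkg Br-cGMP and 3.96, 5.54 and 5.17 FPKM in pkg control. Each treated library lay under the pkg control of its number here too. Among the tested members, only CIPK18 and CIPK12 (lower) and CBL4 and CIPK7 (higher) moved the same way in all 3 numbered pairs. How many of all features do so was not counted, so no weight is given to this agreement. The CIPK12 difference was -0.40 ± 0.28 in pkg and -0.32 ± 0.28 in wild type, so both means were lower with Br-cGMP and neither difference passed. CIPK25 differed by -0.35 ± 0.40, a value set by 6.97 FPKM in pkg control 3, against 1.41 and 1.84 FPKM in the other pkg controls. CBL6 differed by -0.16 ± 0.21, CBL4 (higher with Br-cGMP in all 3 numbered pairs) by 0.29 ± 0.39 and CIPK2 by 0.22 ± 0.30, all with an adjusted p of 1 in limma. CIPK25, CBL6 and CIPK2 turned sign without single libraries.

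**Figure D4:**
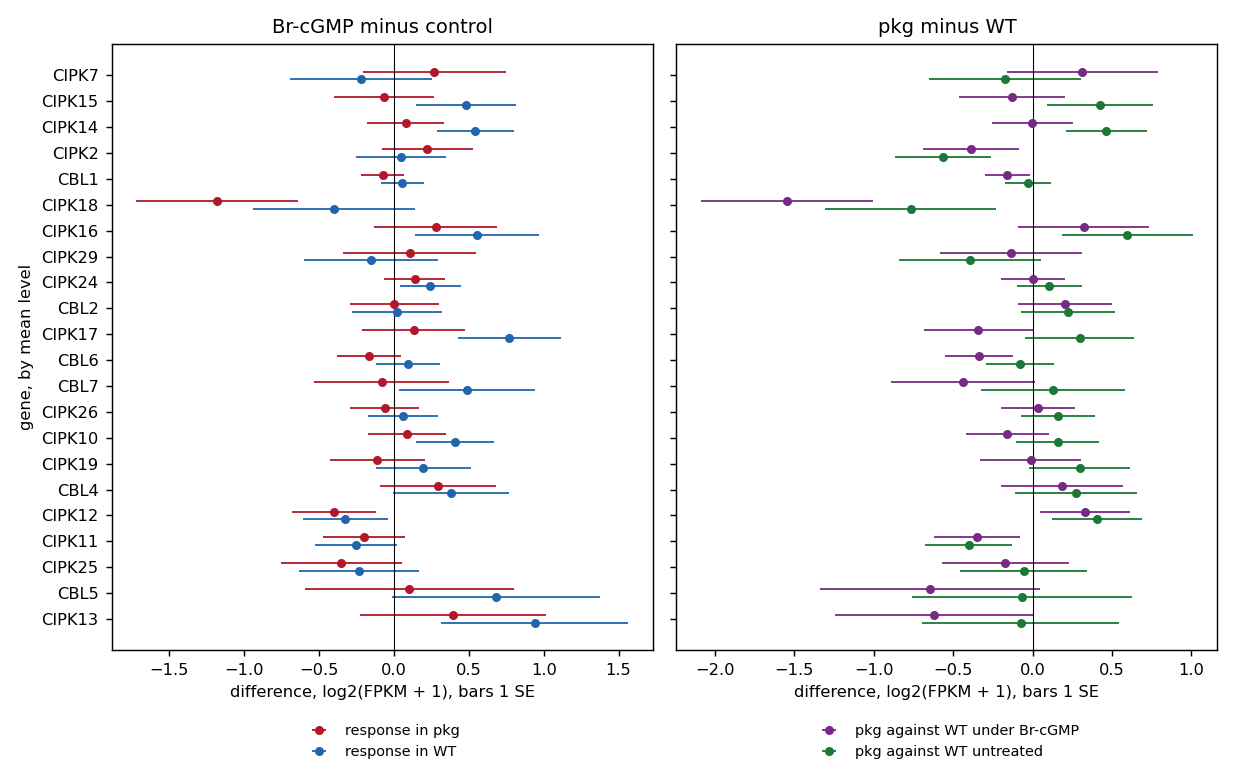
Difference of each of the 22 tested genes on the log2(FPKM + 1) scale, bars 1 standard error; left, Br-cGMP minus control in pkg and in wild type; right, pkg minus wild type under Br-cGMP and untreated. Most bars reach or nearly reach 0, and CIPK18 lies farthest to the left in pkg (-1.18) and under Br-cGMP (-1.55).

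The next question was how the genotypes differ. Without Br-cGMP, 12 of 22 members had a higher mean in pkg control than in WT control (54.5%), beside 49% of all features, with a median of 0.12. No member had an unadjusted p under 0.05 (5.22% of all features did) or passed the adjusted threshold, which 0.341% of features passed. CIPK2 (OS07G0678600, chromosome 7, 28726817 to 28729527, - strand) had the smallest p. It had 75.6, 64.1 and 56.0 FPKM in pkg control and 99.2, 94.2 and 94.8 FPKM in WT control. The groups did not overlap, and the wild type libraries lay within a narrow band. The difference was -0.56 ± 0.30 (adjusted p = 0.947, limma). It was the only member with non-overlapping groups here, where 10.7% of all features had them, and 5.44% with pkg lower.

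A short feature of 89 bases listed inside CIPK2 on the same strand (chromosome 7, 28728997 to 28729085) showed a wider split. It had 1.20, 4.59 and 3.47 FPKM in pkg control and 33.6, 22.0 and 12.2 FPKM in WT control. Under Br-cGMP it had 1.30, 9.0 and 1.41 FPKM in pkg and 6.01, 11.3 and 19.5 FPKM in wild type. Its values rest on 1 to 28 reads per library. The untreated groups did not overlap, as for 5.44% of all features with pkg lower, and those under Br-cGMP overlapped. The difference was -2.53 ± 0.65 untreated and -1.66 ± 0.65 under Br-cGMP (adjusted p = 0.326 and 0.462, limma). Averaged over treatments it was -2.10 ± 0.46 (unadjusted p = 0.000919, adjusted p = 0.0793, limma) and did not pass. Reads of this feature and of CIPK2 may be shared, and the feature was singled out after its values were seen.

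CIPK14 stood at 85.2, 89.1 and 94.6 FPKM in pkg control and 94.7, 59.2 and 48.1 FPKM in WT control, a difference of 0.46 ± 0.26, and 0.22 ± 0.31 without the 3 libraries low in root genes. The WT control libraries are the ones that serve in the wild type response, where the same gene had the second smallest p, so these 2 values are not independent. CIPK11 differed by -0.40 ± 0.27, CIPK16 by 0.60 ± 0.41, CIPK12 by 0.41 ± 0.28 and CIPK18 by -0.77 ± 0.54, all with an adjusted p of 0.947 in limma. Without the 3 libraries low in root genes the CIPK16 difference was 0.99 ± 0.39 (adjusted p = 0.916).

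Under Br-cGMP, 15 of 22 members had a lower mean in pkg than in wild type, and 51.8% of all features lay below 0. The median was -0.15 over the members and -0.02 over all features. The median of the members was -0.062 after quantile normalization and -0.019 without pkg Br-cGMP 1. At an unadjusted p under 0.05 there was 1 member, CIPK18, against 9.47% of all features, and 0.341% of features passed the adjusted threshold. CIPK18 had 33.5, 9.41 and 7.80 FPKM in pkg and 29.1, 41.8 and 60.2 FPKM in wild type. pkg libraries 2 and 3 lay far below all wild type libraries, and library 1 lay among them. The difference was -1.55 ± 0.54 (unadjusted p = 0.0164, adjusted p = 0.423, limma), with a 95% interval from -2.75 to -0.35. It was -1.18 ± 0.64 without the 3 libraries low in root genes, one of them pkg Br-cGMP 3, and -2.16 without pkg Br-cGMP 1 (adjusted p = 0.0652).

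CBL6 was the only member with non-overlapping groups under Br-cGMP, with 12.9, 14.275 and 12.5 FPKM in pkg and 17.9, 19.1 and 14.283 FPKM in wild type. The nearest libraries were practically equal. The difference was -0.34 ± 0.21 (adjusted p = 0.669, limma), and non-overlapping groups were found for 13.3% of all features. CIPK11 differed by -0.35 ± 0.27, CIPK2 by -0.39 ± 0.30, CIPK12 by 0.33 ± 0.28 and CBL1 by -0.16 ± 0.14, with an adjusted p from 0.741 to 0.777 in limma. CIPK11 differed by -0.090 without wild type Br-cGMP 3. CIPK2 differed by -0.118 without pkg Br-cGMP 3 and by -0.709 without pkg Br-cGMP 2. CIPK2 had 70.2, 118.9 and 51.8 FPKM in pkg and 70.6, 106.9 and 129.4 FPKM in wild type, which overlap widely.

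Averaged over both treatments, CIPK18 differed between pkg and wild type by -1.16 ± 0.38 (unadjusted p = 0.0123, adjusted p = 0.261, limma). It was the member with the smallest p, and the only one with an unadjusted p under 0.05, against 12.6% of all features; 0.769% of features passed the adjusted threshold. Without pkg Br-cGMP 1 the CIPK18 difference was -1.47 ± 0.30 and passed (adjusted p = 0.0417), the only setting of 22 in which a member passed. Over all settings its adjusted p ranged from 0.0417 to 0.586. CIPK2 followed at -0.47 ± 0.21 (adjusted p = 0.397), CIPK11 at -0.38 ± 0.19 (0.463) and CIPK12 at 0.37 ± 0.20 (0.489), and CIPK16 (0.46 ± 0.29) and CBL6 (-0.21 ± 0.15) completed the 6 smallest p-values. The response averaged over genotypes gave no member with an unadjusted p under 0.05, against 5.76% of all features, and 0% of features past the adjusted threshold. CIPK18 (-0.79 ± 0.38), CIPK17 (0.45 ± 0.24), CIPK12 (-0.36 ± 0.20), CIPK14 (0.31 ± 0.18), CIPK13 (0.67 ± 0.44) and CIPK16 (0.42 ± 0.29) had the smallest p there, with an adjusted p from 0.860 to 0.881 in limma.

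**Figure D5:**
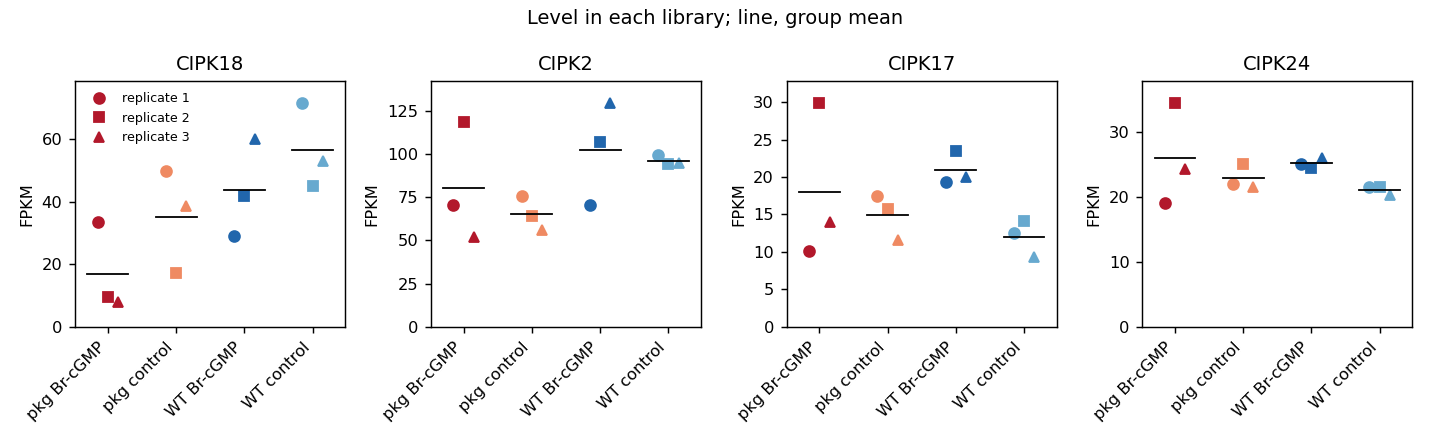
Level (FPKM, from 0) of CIPK18, CIPK2, CIPK17 and CIPK24 in each library, with a marker shape per replicate number and a line at the mean of each group. CIPK18 lies at 9.41 and 7.80 FPKM in 2 of 3 pkg Br-cGMP libraries, CIPK2 is lower in all pkg control than in all WT control libraries, and CIPK17 and CIPK24 are higher in all wild type Br-cGMP than in all WT control libraries.

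Whether the response to Br-cGMP depends on the genotype was tested as the difference between the responses, pkg minus wild type. It was below 0 for 18 of 22 members, all 6 CBL genes among them, and for 52.5% of all features. The median was -0.195 over the members and -0.03 over all features. The wild type Br-cGMP libraries also serve in the wild type response and in the genotype comparison under Br-cGMP. The counts of members higher or lower in these comparisons are therefore not independent. No member had an unadjusted p under 0.05, against 2.07% of all features, and 0.00396% of features passed the adjusted threshold. The smallest p-values belonged to CIPK17 (-0.64 ± 0.48), CIPK14 (-0.47 ± 0.36), CIPK15 (-0.55 ± 0.47), CIPK18 (-0.78 ± 0.76), CBL7 (-0.57 ± 0.64) and CBL6 (-0.26 ± 0.30), all with an adjusted p of 1 in limma. The 4 root genes also lay below 0 in this comparison, with a median of -2.39. For the CIPK18 difference the 95% interval ran from -2.48 to 0.92, so a response that is the same in both genotypes and one that differs by a large factor both lie within it.

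Genes of transport and signalling classes tied to CBLs and CIPKs were read from broad lists of symbols. A gene on a list is not thereby a known partner of a CBL or CIPK. SOS1 and MYBS1 were searched for and matched no symbol. None of the tested genes on the lists passed the adjusted threshold in any comparison by limma. The potassium and sodium transport list had 29 genes, of which 9 were listed at 0 in all libraries, the CIPK23 target AKT1 among them, and 11 could be tested. In wild type 8 of the 11 (48.6% of all features) and in pkg 10 of the 11 (48.3% of all features) had a higher mean with Br-cGMP, with medians of 0.10 and 0.27. The 4 root genes had a median of 2.55 in wild type and 0.16 in pkg in these comparisons, and their part in the counts was not tested. HKT7, a sodium transporter, had 0.433, 0.889 and 0.897 FPKM in pkg control and 4.84, 2.00 and 4.98 FPKM in WT control. Those groups did not overlap, at levels of a few FPKM, and 5.44% of all features were lower in pkg without overlap. The difference was -1.45 ± 0.40 (unadjusted p = 0.00462, adjusted p = 0.428, limma). HKT7 was the 1 gene of the 11 with an unadjusted p under 0.05 there, against 5.22% of all features. Under Br-cGMP HKT7 had 1.47, 0.598 and 1.61 FPKM in pkg and 0.931, 2.55 and 4.09 FPKM in wild type, and the groups overlapped. Averaged over treatments HKT7 differed by -1.02 ± 0.28 (unadjusted p = 0.00481, adjusted p = 0.183, limma). These sizes depend on the scale at such low levels, and the untreated HKT7 difference was -0.621 with a pseudocount of 5.

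HKT4, of the same transporter family, had 2.74, 2.35 and 4.64 FPKM in pkg and 1.46, 1.72 and 1.24 FPKM in wild type under Br-cGMP. Those groups did not overlap, where 13.3% of all features did not. The HKT4 difference was 0.74 ± 0.31 (unadjusted p = 0.0346, adjusted p = 0.486, limma), and 0.52 ± 0.35 without the 3 libraries low in root genes. HKT4 was the 1 gene of the 11 with an unadjusted p under 0.05 there, against 9.47% of all features. TPKC, a potassium channel gene, ranged from 9.44 to 16.9 FPKM over the 6 pkg libraries and from 7.76 to 9.97 FPKM over the 6 wild type libraries. These ranges overlapped at their edges. Averaged over treatments the TPKC difference was 0.37 ± 0.16 (unadjusted p = 0.0411, adjusted p = 0.375, limma). In that average 2 of the 11 genes, HKT7 and TPKC, had an unadjusted p under 0.05, against 12.6% of all features.

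The nitrate and ammonium list had 11 genes, of which 4 could be tested, and all 4 had a higher mean with Br-cGMP in wild type and in pkg, beside 48.6% and 48.3% of all features, with medians of 0.25 and 0.54. One of them, the ammonium transporter gene AMT1-2, was lowest in pkg control 3 (listed at 0) and WT control 3 (0.294 FPKM), both low in root genes. In pkg Br-cGMP 3, also low in root genes, AMT1-2 had 0.747 FPKM, above pkg control 1 and 2 (0.46 and 0.441 FPKM). None of the 4 genes separated these 3 libraries from the other 9. Of 6 calcium transport genes 3 could be tested. CAX1A, a vacuolar calcium/proton exchanger, had 45.8, 26.4 and 35.3 FPKM in wild type Br-cGMP and 36.7, 65.9 and 84.2 FPKM in WT control, which overlap. Its difference was -0.73 ± 0.32 (unadjusted p = 0.0425, adjusted p = 0.882, limma). CAX1A was the 1 gene of the 3 with an unadjusted p under 0.05 there, against 5.33% of all features. Without the 3 libraries low in root genes, WT control 3 among them, the CAX1A difference was -0.481 ± 0.327 (unadjusted p = 0.183), and without WT control 1 it was -1.07. In pkg it was -0.05 ± 0.32. Of 9 kinases of the related SnRK1 and SnRK2 classes, 5 were listed at 0 in all libraries and OSK4 alone could be tested. It differed by 0.34 ± 0.25 in the pkg response and by 0.01 ± 0.25 in the wild type response. Between pkg and wild type it differed by 0.17 ± 0.25 under Br-cGMP and by -0.16 ± 0.25 untreated. In the sugar and low oxygen branch of CIPK15, 2 of 8 genes could be tested, both alcohol dehydrogenases. ADH2 had 0.708, 0.967 and 0.511 FPKM in pkg Br-cGMP 3, pkg control 3 and WT control 3, the libraries low in root genes, and 86.9 to 392 FPKM in the other 9. CIPK15 itself had 148, 104.5 and 56.8 FPKM in those 3 libraries and did not share this split.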

How the data were processed

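Values were deposited as 1 table per library. The authors' files name no unit; the deposited values are FPKM by their structure, since multiplying a value by its feature length gave whole reads (to within 0.01) for 100% of values above 0. HISAT2 and CASAVA 1.8 are named in the submitters' processing notes; no source used here gives the counting program, build or annotation. The library size implied by the size of 1 read differed from the summed reads. It was 9385897 against 8543653 in pkg control 1 and 9363915 against 9438909 in WT control 1. Whether the authors scaled the libraries to each other was not tested. Differences were fitted on log2(FPKM + 1) with limma 3.58.1 (R 4.3.3), a scale which makes folds of low genes too small, with 4 group means, trended and robust moderation, over the 25238 features with 3 or more libraries at 1 FPKM or above. A gene that passed through 1 group alone had to be high there. Tables and plots used Python 3.11.15, pandas 2.3.3 and matplotlib 3.10.9.

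Each member is named with its level. Differences are given for the 6 members with the smallest p of each comparison and for members whose groups did not overlap (added after the values were seen). They are also given for genes of the lists with an unadjusted p under 0.05 (OSK4 as the 1 gene of its list). A few others stand beside these for comparison. Members and lists were chosen with earlier results of these data known. The procedure was run on simulated reads with a common spread for all features and no libraries low in root genes. That run does not show how it performs on libraries as uneven as these. Same-numbered pkg libraries with and without Br-cGMP deviated together (correlations of 0.305 to 0.356 across features, each over 0.1). Their numbers were therefore taken to pair them, from the data alone. Both pkg libraries numbered 3 are low in root genes. Untreated pkg and wild type libraries numbered 3, both low as well, correlated at 0.407. The part of this in the pairing was not tested. In the other comparisons the numbers did not pair as a set. The main fit uses no pairs, and the replicate block does. Between any 2 libraries of a group the chi-square of the reads per degree of freedom was at least 21.26, so none repeats another. Alternatives covered filter, pseudocount, scaling, groups in the fit, moderation, replicate block, limma-voom, reference genes alone and libraries left out.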

Additional observations from a re-analysis of the deposited data

How the results depend on the processing

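No member passed the adjusted threshold in 6 of the 7 comparisons under any alternative, and in the seventh, the genotype difference averaged over treatments, leaving out single libraries gave 0 to 1 member (CIPK18 without pkg Br-cGMP 1). Among the tested members depth was lowest for CIPK13 and CBL5, which had 0 reads in at least 1 library, and its part in the lack of calls was not tested. Of 48 differences put through the alternatives, 33 moved by over 1.5 times or turned sign when 1 library was left out, and 31 did so under the other alternatives. The wild type responses of CBL1 and CIPK12, the pkg response of CAX1A, and the differences of OSK4 and of the short feature in CIPK2 were not among them. Without the 3 libraries low in root genes the pkg response of CIPK25 turned to 0.076 and that of CBL6 to 0.036, and the difference between the responses of CBL6 to 0.058. In the pkg response, leaving out single libraries gave a range from -0.676 to 0.186 for CIPK25, from -0.260 to 0.001 for CBL6 and from -0.100 to 0.491 for CIPK2; the cause was not tested. With a replicate block no call changed: in pkg the CIPK18 response was -1.18 ± 0.40 (unadjusted p = 0.0236, adjusted p = 1, limma), and in wild type CIPK14 had the smallest adjusted p, 0.556, among the named members. Only the compared groups in the fit could not be varied for the averages and for the difference between the responses, which use all 4 groups.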

Other observations

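AMY1.1, an α-amylase gene of germinating seeds in the list tied to CIPK15, had 466 FPKM (6297 reads) in pkg Br-cGMP 1 and at most 0.159 FPKM in the other 11 libraries, 8 of which listed it at 0. Below 1 FPKM in 11 libraries, it was not tested. In that library CIPK15 had 94.0 FPKM, within its range over the other libraries, and CIPK18 had 33.5 FPKM, the highest of the 3 pkg Br-cGMP libraries. Its 4 root genes had a mean log2 level of 5.03, the lowest outside the 3 libraries described above. HAK5, a potassium transporter gene, was also highest there, at 8.37 FPKM against 0.754 to 3.61 FPKM in the other 11.

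A 54-base feature inside CBL10 (chromosome 1, 29570074 to 29570127, same strand) had 4.28 to 40.0 FPKM over the 12 libraries, from 2 to 16 reads each, while CBL10 itself was listed at 0 in all of them.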
